A study of Mus musculus with 14 samples.

Results

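The comparison described here sets the immunoprecipitated RNA of mice that received mutant human tau in the locus coeruleus against that of mice that received a fluorescent protein. Its libraries were chosen by their titles, tau IP (animals B, C, L and M) and EYFP IP (animals H, I and K), which makes 7 of the 14 libraries in all. The other 7 are the homogenates of the same animals taken before the immunoprecipitation (pre-IP), and they are used only where a value needs its input. All 7 mice were TH-Cre;Slc6a2-eGFP/Rpl10a on a C57Bl/6 background and were 2 to 3 months old when they were infused. The tau animals received human tau with the P364S substitution and the EYFP animals received EYFP, both by stereotaxic infusion into the locus coeruleus. The labels give brainstem as the tissue. Cre was driven by the tyrosine hydroxylase promoter, and the tagged ribosomal protein by the gene of the noradrenaline transporter, so both transgenes depend on genes that are themselves among those measured.

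The locus coeruleus is a small nucleus of noradrenaline-producing neurons that project to most of the brain. These cells make noradrenaline from tyrosine through Th, Ddc and Dbh, load it into vesicles with Slc18a2 and take it back up with Slc6a2. Because the ribosomes of Slc6a2-expressing cells carry green fluorescent protein, an antibody against it can pull them out of a homogenate together with the RNA that they hold, and RNA of other cells that comes along forms a background. In bulk RNA of this kind, fewer cells of a type and less RNA per cell cannot be told apart. Only the control animals received EYFP, itself a fluorescent protein. An effect of EYFP on the pull-down and an effect of tau therefore cannot be told apart here, and neither was tested.

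The 7 IP libraries had from 46801702 to 65664551 counts. Several of them stood apart. The IP library of tau animal B had the fewest genes with a count (20813, against 23632 to 25885 in the other 6) and the lowest RNA concentration (0.1 ng per microlitre). The IP RNA of EYFP animal I had an RNA integrity number of 4.2, against 7.7 to 9 in the others. The IP library of EYFP animal K held 398 counts of the human tau construct, against 16 and 18 in H and I and 6943 to 47177 in the tau libraries. The pre-IP library of K held 408, against 8 and 2 in H and I. Tau animal M was labelled female but had counts of 4 Y-linked genes. Pituitary hormone genes took 0.447% of counts in tau animal L, 0.0913% in tau animal M and 0.0908% in EYFP animal K. In the other IP libraries they took at most 0.0131%. The RNA concentration was 0.400 ± 0.316 ng per microlitre in the tau IP (SD, n = 4) and 1.70 ± 1.05 in the EYFP IP (SD, n = 3), with overlapping groups (two-sided exact permutation p = 0.0571 over 35 splits, of which the smallest possible is 0.0286). Levels below are counts per 1000000 counts of the library (CPM), and fold changes are log2 of tau over EYFP. The p-values set a difference between the groups against the spread between these animals.

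Of 19472 genes tested with edgeR, 0 had an adjusted p under 0.05 (percent called 0), and the lowest adjusted p was 0.318. At an unadjusted p under 0.05 there were 2336 genes (12%), of which 1545 (7.93%) were higher and 791 (4.06%) lower in tau IP. No overlap between the groups was seen for 1239 genes with every tau library higher (6.36%) and for 1795 genes with every tau library lower (9.22%). Counts of list members below are to be read beside these shares over all genes. Every gene named below had an edgeR adjusted p of at least 0.318 in this fit, so the differences are described by their levels, by their standard errors and by whether the groups overlapped. DESeq2 called 411 of the 4749 genes for which it gave an adjusted p (8.65%) with its independent filter set to 0.05, 390 of them higher (8.21%) and 21 lower (0.442%) in tau, and 342 of 15689 (2.18%) at its default filter level. Its adjusted p-values are given below as values beside a main test that called 0 genes. Without animal M, edgeR called 128 genes (0.67% of 19103), of which 126 (0.66%) were higher. With all 14 libraries in a single fit it called 202 genes (0.986% of 20495), of which 176 (0.859%) were higher. That fit had no term for the animal, so paired IP and pre-IP libraries counted as independent, and its spread came from both fractions. Without a low-count filter it called 113 (0.355% of 31864). limma voom called 0 genes (percent called 0, and 2969 at an unadjusted p under 0.05, 15.2%).

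Noradrenergic genes stood far higher in tau IP than in EYFP IP. All 12 genes listed for catecholamine synthesis, storage, reuptake and breakdown were tested. Of these, 10 had a fold change above 0 (43.4% of all genes tested did). As higher, 9 had an unadjusted p under 0.05 (7.93% of all genes) and 9 had no overlap between the groups (6.36%). The median log2 fold change of the list was 2.28, against -0.08 over all genes tested, and it was 1.75 without animal B and 2.59 without animal M. In the homogenates the same list had a median of 0.02.

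**Figure D1:**
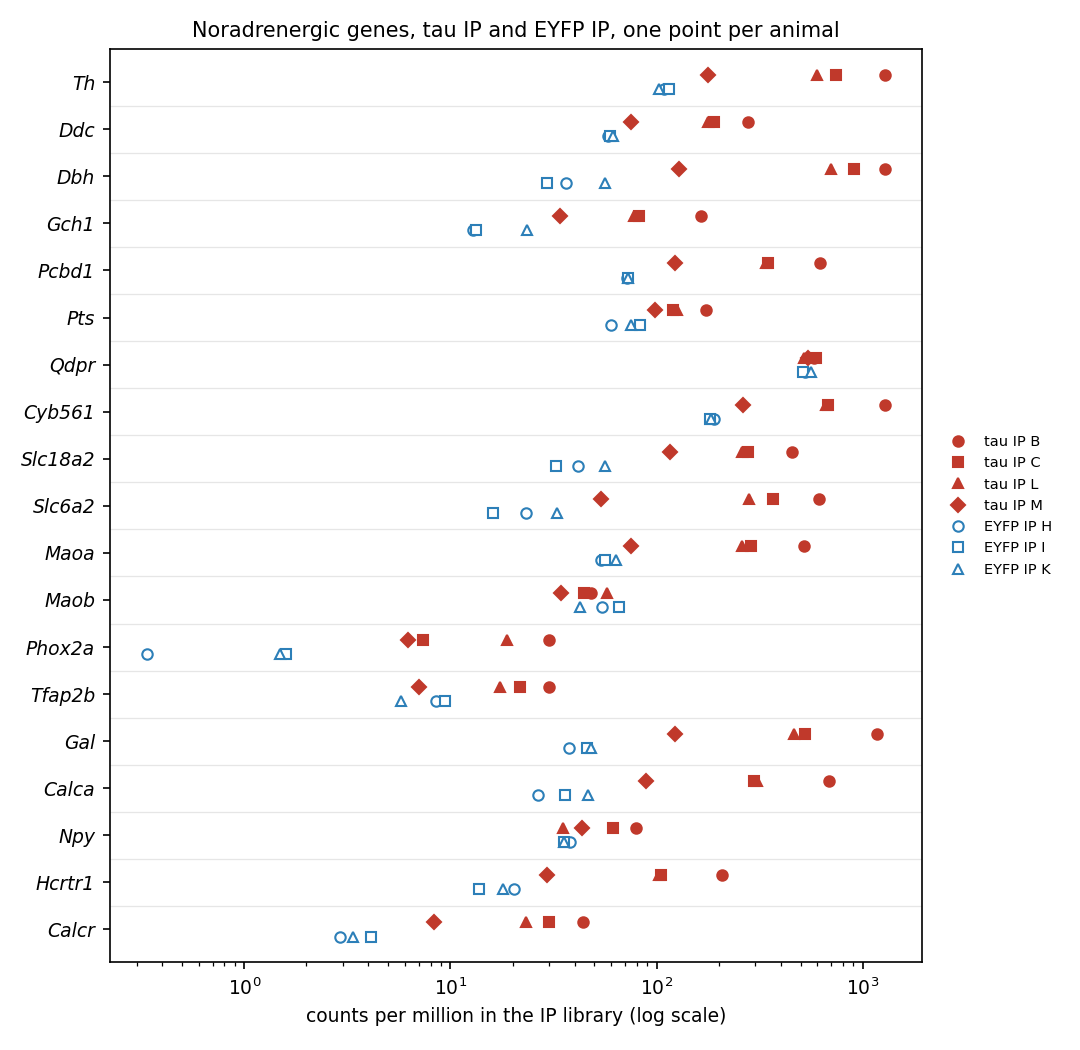
CPM (log scale) of noradrenergic genes in each IP library, with filled red symbols for the 4 tau animals and open blue symbols for the 3 EYFP animals. For Dbh the tau libraries span 128 to 1292 CPM and the EYFP libraries 29.2 to 56.1 CPM, while Qdpr and Maob overlap between the groups.

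Among the synthesis enzymes, Dbh, which converts dopamine to noradrenaline, had 1292, 912, 700.3 and 128 CPM in tau animals B, C, L and M and 36.4, 29.2 and 56.1 CPM in EYFP animals H, I and K. Animal B was the highest and animal M the lowest of the tau group, and M still lay above all EYFP libraries. The log2 fold change was 4.36 (SE 0.72), an 18.7-fold ratio of the means, with a DESeq2 adjusted p of 1.55e-05. Th, the rate-limiting enzyme that makes L-DOPA, had 1285, 743, 598 and 177 CPM in tau animals B, C, L and M and 108, 115 and 103 CPM in EYFP animals H, I and K. The EYFP libraries were close to each other, and all tau libraries lay above them, for a log2 fold change of 2.83 (SE 0.57) and a DESeq2 adjusted p of 0.00118. Ddc, which turns L-DOPA into dopamine, had 278, 191, 178 and 74.9 against 58.2, 59.6 and 61.2 CPM in the same order of animals, which is kept wherever levels are given without letters. Its log2 fold change was 1.73 (SE 0.39).

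The cofactor of Th is tetrahydrobiopterin, and the genes of its pathway did not all stand together. Gch1, its rate-limiting synthesis enzyme, had 164, 82.1, 77.4 and 33.9 against 12.9, 13.4 and 23.5 CPM, a log2 fold change of 2.57 (SE 0.52). Pcbd1, which acts in the recycling of the cofactor and lay outside the list, had 622, 346, 338 and 123 against 71.6, 72.5 and 72.3 CPM, a log2 fold change of 2.45 (SE 0.48). The EYFP libraries of Pcbd1 were nearly equal, and every tau library lay above them. Pts, another synthesis enzyme, differed on the log2 scale by 0.95 (SE 0.24) without overlap, whereas Qdpr, which regenerates the cofactor in many cell types, overlapped between the groups at 582, 591, 519.96 and 546 against 528, 513 and 562 CPM.

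Storage and reuptake genes followed Dbh. Slc18a2, the vesicular monoamine transporter, had 454, 278, 261 and 117 CPM in tau animals B, C, L and M and 41.6, 32.7 and 56.02 CPM in EYFP animals H, I and K. Tau animal M was the lowest of its group at 117 CPM, above the highest EYFP library at 56.02 CPM. The log2 fold change of 2.81 (SE 0.45) had the smallest DESeq2 adjusted p of all genes, 6.03e-09. Slc6a2, the noradrenaline transporter whose regulatory sequence drives the ribosome tag, had 614, 367, 282 and 53.8 against 23.3, 16.02 and 32.9 CPM and a log2 fold change of 3.91 (SE 0.73). Cyb561, which supplies electrons for Dbh inside vesicles, had 1290.4, 681, 666 and 264 against 191, 181 and 183 CPM and a log2 fold change of 2.12 (SE 0.46). The monoamine oxidases were divided. Maoa, the monoamine oxidase of noradrenergic neurons, had 522, 288, 259.7 and 75.04 against 53.9, 56.3 and 63.5 CPM and no overlap (log2 fold change 2.45, SE 0.55), while Maob (log2 fold change -0.12, SE 0.21), which other cell types also make, overlapped.

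Promoters of these genes were searched for a pair of motifs. Of the 12 listed genes, 8 were found in the RefSeq promoter table (GRCm38.p6, from 250 bases before to 50 after the start site), with 9 promoters. The letters TGACGTCA, the cAMP response element, which read the same on both strands, occur in 2 of these 9 promoters (22.2%), those of Th and Slc18a2, and in 588 of 32851 promoters of the table (1.79%). The letters ATTA on either strand, the core of many homeodomain sites, occur in 5 of the 9 (55.6%) and in 58.0% of all, near the same share. Of 15 genes named as higher for their p-value or the size of their change, whether noradrenergic or not, 10 were in the table, and TGACGTCA is in 1 of their 14 promoters, that of Slc18a2. The stretches below show these motifs in capitals, for Dbh from 170 to 51 bases before the start site and for Th and Slc18a2 from 100 bases before to 20 after it. No capitalised motif overlaps another, and a match is a description of letters, not of binding.
Dbh, chr2:27165337-27165456, plus strand: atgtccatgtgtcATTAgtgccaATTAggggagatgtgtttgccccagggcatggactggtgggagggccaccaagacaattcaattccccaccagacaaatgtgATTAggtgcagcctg
Th, chr7:142899976-142900095, minus strand: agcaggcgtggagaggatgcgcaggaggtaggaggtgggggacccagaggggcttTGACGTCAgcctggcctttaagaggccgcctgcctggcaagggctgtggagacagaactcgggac
Slc18a2, chr19:59260778-59260897, plus strand: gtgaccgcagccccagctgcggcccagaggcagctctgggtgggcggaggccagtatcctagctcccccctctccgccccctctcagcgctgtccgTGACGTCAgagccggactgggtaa

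The transcription factors of noradrenergic neurons differed among themselves. Phox2a, a homeodomain factor that specifies these neurons, had 29.9, 7.33, 18.8 and 6.199 CPM in tau animals B, C, L and M and 0.335, 1.59 and 1.48 CPM in EYFP animals H, I and K. Both groups were low, and no EYFP library exceeded 1.59 CPM, for a log2 fold change of 3.93 (SE 0.76). Tfap2b overlapped between the groups (log2 fold change 1.41, SE 0.45), and Gata2, a factor shared with serotonergic neurons, lay below 0 (log2 fold change -0.55, SE 0.33) with overlap. In all, 11 of the 12 listed factors were tested, 6 lay above and 5 below 0, and 3 were without overlap and higher.

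Neuropeptides of the nucleus were split in the same way. Gal, the precursor of galanin, had 1178, 527, 463 and 123 CPM in tau animals B, C, L and M and 37.5, 45.8 and 48.3 CPM in EYFP animals H, I and K. Animal B stood highest and M again had the lowest tau level, above all EYFP libraries, for a log2 fold change of 3.86 (SE 0.68) and a DESeq2 adjusted p of 9.94e-05. Calca, the precursor of calcitonin gene-related peptide, had 686, 296, 309 and 88.6 against 26.7, 35.8 and 46.6 CPM and a log2 fold change of 3.39 (SE 0.63). Npy, which only a part of these neurons make, overlapped between the groups (log2 fold change 0.72, SE 0.29). Vgf, a granin-like precursor found in many neurons, was lower in every tau library, at 47.5, 63.5, 64.3 and 76.1 against 114, 96.2 and 109 CPM and a log2 fold change of -0.66 (SE 0.16). Of the 12 listed peptides and granins, 8 lay above 0 and 4 below, 4 had an unadjusted p under 0.05 as higher and 1 (Vgf) as lower.

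Of 18 listed receptors that control firing in the locus coeruleus, 2 were without overlap and higher and 2 without overlap and lower. Over all genes tested these shares were 6.36% and 9.22%. Hcrtr1, an orexin receptor, had 207, 105, 103 and 29.3 against 20.4, 13.8 and 18.1 CPM and a log2 fold change of 2.82 (SE 0.57). Calcr, the calcitonin receptor, had 43.8, 29.9, 23.3 and 8.32 against 2.89, 4.098 and 3.36 CPM and a log2 fold change of 3.07 (SE 0.53). Adra1b, an adrenoceptor expressed by many brainstem cells, had 11.4, 13.95, 19.2 and 20.7 against 30.7, 32.9 and 22.3 CPM, a log2 fold change of -0.71 (SE 0.23). The median of this list was -0.04, near that of all genes.

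The library numbers fell into a range up to 11 (tau B and C, EYFP H and I) and a range from 17 on (tau L and M, EYFP K), and the differences were computed in each on the scale of log2(CPM + 0.5). For Dbh they were 5.04 and 2.41, for Th 3.12 and 1.65, for Slc18a2 3.25 and 1.63 and for Gal 4.23 and 2.29. The direction was the same in both ranges for these 4 genes, and the size was larger in the first. The second range held 1 EYFP library, and the difference between the ranges was not tested. Leaving out each IP library in turn moved the log2 fold change of Dbh from 3.90 to 4.71, of Th from 2.28 to 3.16 and of Gal from 3.14 to 4.20.

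There were 39 genes called by DESeq2, by edgeR without animal M, by edgeR over all 14 libraries and by edgeR without a low-count filter alike. Apart from DESeq2 at its default filter level, every other setting tried for this comparison called 0 genes. The 39 are thus a selection from settings that gave calls on the same animals, and 3 of them had overlapping groups. All 39 were higher in tau, with log2 fold changes from 1.23 to 7.45, and 24 belonged to none of the gene lists. In 38 of them, all but the human tau construct, animal B had the highest and animal M the lowest tau level. Over all genes tested, 12.99% had this order. Among genes with every tau library higher it was 52.9%, and among those DESeq2 called as higher 79.0%. Leaving out M was part of the choice of the 39, so their order was partly set by that choice. The construct had IP levels of 839.6, 368, 137 and 194 against 0.244, 0.373 and 6.55 CPM. Its order differed from that of the noradrenergic genes, since animal M had more construct and less Dbh than animal L. In the homogenates the construct had 6122, 3527, 5049 and 11358 counts (not scaled for depth) in tau animals B, C, L and M, so M was highest in the input.

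Several of the other genes are not known mainly as noradrenergic. Gpx3, a secreted glutathione peroxidase that removes peroxides, had 2894, 1375, 1504 and 348 CPM in tau animals B, C, L and M and 235, 202 and 187 CPM in EYFP animals H, I and K. The groups did not overlap, with a log2 fold change of 3.03 (SE 0.60) and a DESeq2 adjusted p of 0.0008. Fgf13, an intracellular protein that binds voltage-gated sodium channels, had 913, 537, 441 and 162 against 82.9, 122 and 118 CPM and a log2 fold change of 2.40 (SE 0.52). Fkbp1b, a binding partner of ryanodine receptors, had 669, 486, 419.9 and 202 against 129, 118 and 161 CPM and a log2 fold change of 1.84 (SE 0.38). In both genes the lowest tau library, M, lay closest to the EYFP group. Rab3b, a vesicle GTPase, differed on the log2 scale by 1.85 (SE 0.42), S100a10, a partner of annexin and of serotonin receptors, by 2.33 (SE 0.50), and Slc10a4, a vesicular protein of monoaminergic and cholinergic neurons, by 2.91 (SE 0.57). None of these 3 had overlapping groups.

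Dlk1 and Eya2 were also among the 39, and the genes that follow them here were not. Dlk1, a Notch-related ligand, had 332, 214, 176 and 76.1 against 53.9, 49.6 and 59.6 CPM and a log2 fold change of 2.01 (SE 0.44). Eya2, a phosphatase that acts with transcription factors, had 85.97, 39.9, 76.7 and 28.8 against 9.99, 16.7 and 20.9 CPM. In Eya2 animal L was near B and animal C near M, unlike the usual order, and the log2 fold change was 1.99 (SE 0.44). Gnb3, a G protein beta subunit, had 11.5, 11.4, 15.4 and 4.97 against 2.92, 2.28 and 2.27 CPM and a log2 fold change of 2.23 (SE 0.38), with animal L the highest. Shisal2b had 84.6, 33.01, 32.8 and 8.27 against 2.01, 2.44 and 2.01 CPM and a log2 fold change of 4.36 (SE 0.73), and the uncharacterised 5033406O09Rik had 57.9, 46.3, 27.7 and 9.13 against 4.401, 2.52 and 3.06 CPM, with a log2 fold change of 3.54 (SE 0.60). EYFP levels of both were at most 4.40 CPM. Apol10a had 0 counts in all EYFP libraries and at most 4.31 CPM in tau, which makes it at least 52.3-fold higher against a floor of 3 counts per library, and reads of related Apol genes could be split by the counting. Hspb3, a small heat shock protein, was low throughout, at 4.81, 3.93, 3.79 and 2.105 against 0.6701, 0.331 and 0.856 CPM and a log2 fold change of 2.67 (SE 0.49).

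**Figure D2:**
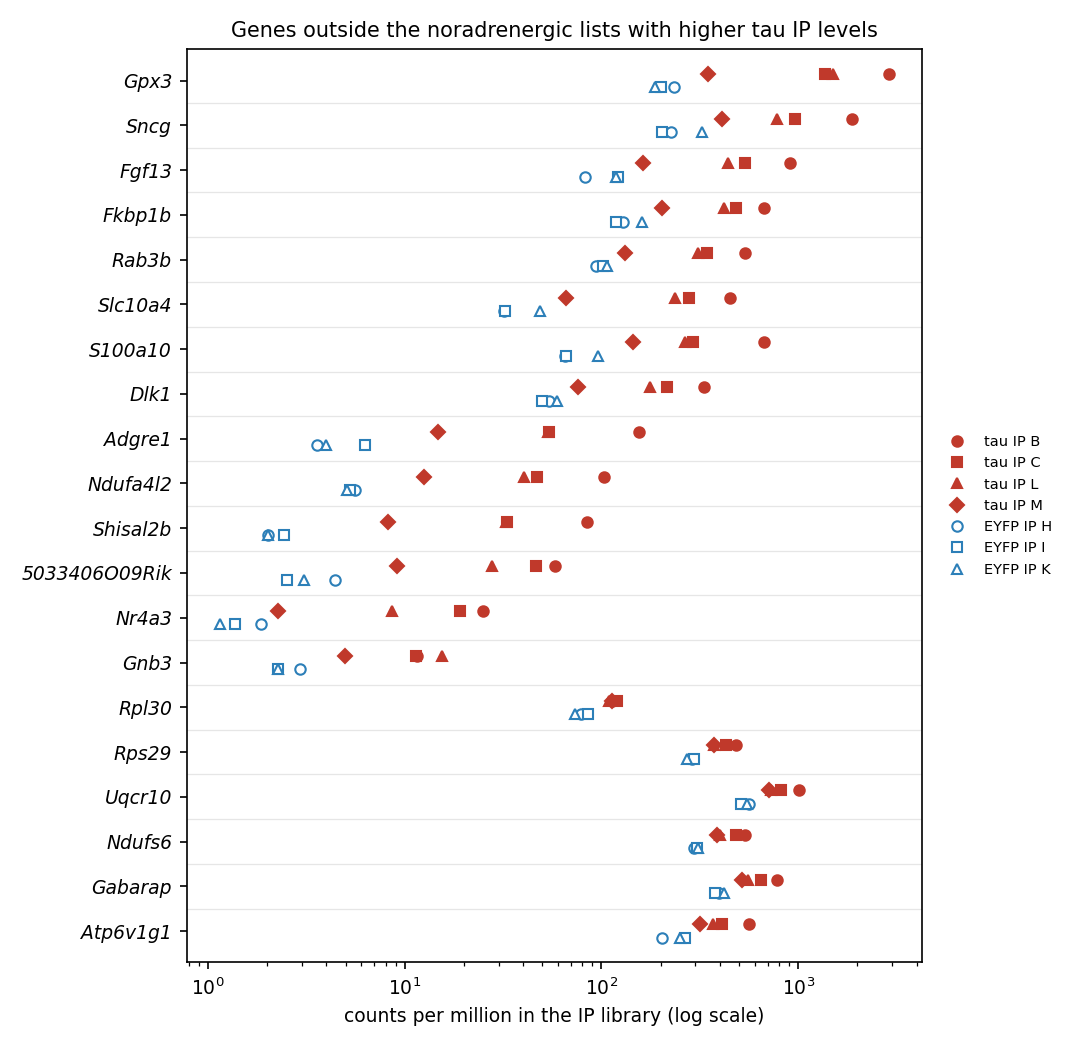
CPM (log scale) in each IP library for genes outside the noradrenergic lists, filled red for tau and open blue for EYFP animals. For Gpx3 the tau libraries span 348 to 2894 CPM and the EYFP libraries 187 to 235 CPM, whereas the ribosomal gene Rpl30 spans 109 to 120 CPM against 73.3 to 85.1 CPM.

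Adgre1, known as the gene of a macrophage surface receptor, went against the microglial genes. It had 155, 54.2, 53.3 and 14.8 CPM in tau animals B, C, L and M and 3.56, 6.27 and 3.99 CPM in EYFP animals H, I and K. All tau libraries lay above all EYFP libraries in the order B, C, L and M, for a log2 fold change of 4.08 (SE 0.75) and a DESeq2 adjusted p of 0.000387. All 13 listed genes of microglia and macrophages, a list that does not hold Adgre1, lay below 0 (56.6% of all genes did), with a median of -0.39 and 3 without overlap as lower. Csf1r, the receptor these cells need to survive, had 21.6, 20.9, 25.7 and 28.5 against 53.8, 30.2 and 42.9 CPM and a log2 fold change of -0.70 (SE 0.22). The summed level of the 13 ran from 0.0261 to 0.0506% in the tau and from 0.0447 to 0.05201% in the EYFP libraries.

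Most immediate early genes, which neurons switch on with activity, were lower in tau IP. Of 17 listed, 15 lay below 0 (56.6% of all genes did) and 5 were without overlap as lower (9.22% of all genes were). The list median was -0.46 (-0.26 without animal B, 0.03 in pre-IP). Fos had 10.2, 23.1, 17.2 and 24.8 against 33.7, 37.998 and 31.2 CPM and a log2 fold change of -0.77 (SE 0.26). Nr4a2 had 3.702, 5.38, 7.16 and 2.39 against 11.7, 10.5 and 7.58 CPM and a log2 fold change of -0.98 (SE 0.35). Its relative Nr4a3, another nuclear receptor of the family, was an exception, with 25.1, 19.02, 8.601 and 2.28 CPM in tau animals B, C, L and M and 1.86, 1.37 and 1.15 CPM in EYFP animals H, I and K. The EYFP libraries had at most 1.86 CPM and M lay just above them, for a log2 fold change of 3.38 (SE 0.74).

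Ribosomal protein genes lay above 0 with 1 exception, with log2 fold changes from -0.04 to 1.07. Of 84 cytosolic ribosomal protein genes tested, 83 lay above 0 (43.4% of all genes did) and 64 had an unadjusted p under 0.05. Without overlap as higher were 58 (6.36% of all genes were). DESeq2 called 29 as higher (8.21% of the genes to which it gave an adjusted p). The median log2 fold change was 0.52, 0.39 without animal B, and 0.17 in pre-IP. Together they took 2.41, 2.15, 1.95 and 2.005% of counts in tau animals B, C, L and M and 1.73, 1.77 and 1.47% in EYFP animals H, I and K. All tau libraries were above all EYFP libraries, and animals L and M were close to each other, unlike their noradrenergic levels. Rpl30, a large-subunit protein, had 113, 119.95, 109 and 113 against 78.9, 85.1 and 73.3 CPM and a log2 fold change of 0.63 (SE 0.14) with a DESeq2 adjusted p of 0.00282. Rps12 (log2 fold change 0.59, SE 0.14), Rps29 (log2 fold change 0.66, SE 0.17) and Rps26 (log2 fold change 0.73, SE 0.19), proteins of the small subunit, were also without overlap. These genes have many processed pseudogenes whose reads the counting could split, and 718 processed pseudogenes had a median of 0.45. Rpl10a, whose counts cannot be split between the mouse gene and the tagged transgene, overlapped between the groups at 179, 149, 123 and 128 against 131, 100.1 and 91.5 CPM.

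Nuclear-encoded genes of the respiratory chain lay mostly above 0. Of 84 nuclear-encoded subunits of the respiratory chain and ATP synthase, 71 lay above 0. Without overlap, 52 were higher (6.36% of all genes were) and 5 lower (9.22%). The median was 0.49 (0.35 without animal B, 0.16 in pre-IP). Uqcr10, a subunit of the cytochrome bc1 complex, had 1011, 817, 731 and 714 against 559, 509.5 and 549 CPM and a log2 fold change of 0.72 (SE 0.19). Ndufs6, of the NADH dehydrogenase complex, had 534, 483, 403 and 386 against 296, 306 and 308 CPM, with a log2 fold change of 0.69 (SE 0.18). The EYFP libraries of both genes were close together and below every tau library. The member farthest from the rest was Ndufa4l2, a hypoxia-related relative of a chain subunit, which had 103, 46.8, 40.6 and 12.5 against 5.57, 5.28 and 5.11 CPM and a log2 fold change of 3.41 (SE 0.63), in the animal order of Dbh. Mitochondrial ribosomal proteins lay on the same side as the chain subunits, with 72 of 77 above 0, 39 without overlap as higher and a median of 0.41, for example Mrpl51 at 257, 208, 190.1 and 185 against 127, 145 and 143 CPM (log2 fold change 0.72, SE 0.19). Of the 11 tested genes of the mitochondrial genome, 10 lay below 0, 0 had an unadjusted p under 0.05 and 1 was without overlap as lower. Their median was -0.47 (-0.21 without animal B), and 1 gene lay at 1.27. mt-Nd5 had 104, 354, 398 and 358 against 539, 594 and 416 CPM, with animal B far below the other tau libraries, and its log2 fold change was -0.68 (SE 0.35). The enzymes of glycolysis and the citric acid cycle lay below 0 in 22 of 27 cases, with a median of -0.14 against -0.08 over all genes, and of -0.03 after the subtraction for length described below. Ldha lay above 0 with overlap (log2 fold change 0.72, SE 0.26).

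The short genes stood higher as a whole, and this touches the ribosomal and mitochondrial lists. The genes were put into 10 groups of like number by their deposited length, and the median log2 fold change went from 0.35 in the shortest group (48 to 1041 bases) to -0.26 in the longest (9128 to 123179 bases). This length is not the genomic span. Dbh, for example, has a length of 2692 bases and lies between positions 27165233 and 27183200. In pre-IP the same medians went from 0.13 to -0.07. After the median of its length group was subtracted from each gene, the list medians were 0.40 for ribosomal proteins, 0.34 for mitochondrial ribosomal proteins, 0.31 for the respiratory chain and 2.36 for catecholamine genes. Before the subtraction these medians were 0.52, 0.41, 0.49 and 2.28. This setting was chosen after seeing the data, and the part that this length had in single genes was not tested.

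**Figure D3:**
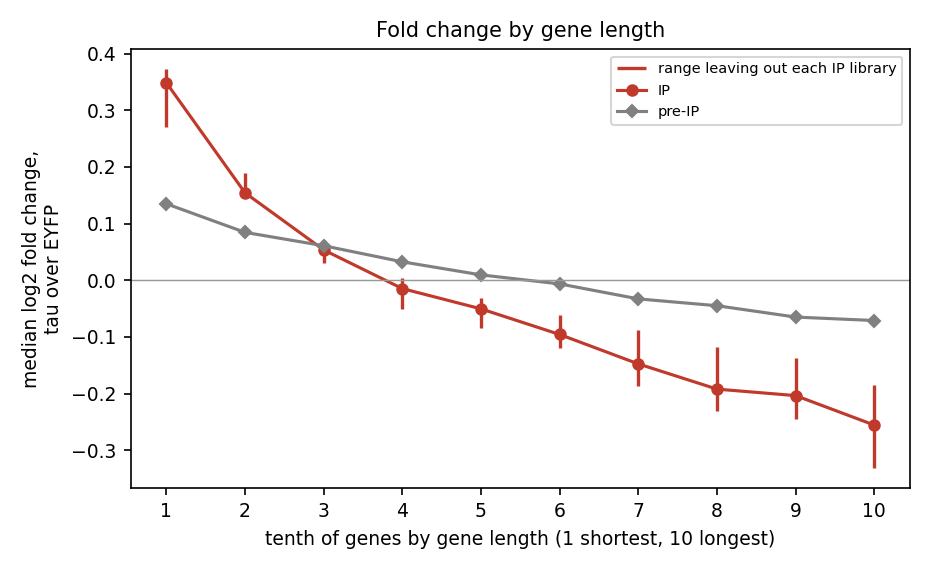
Median log2 fold change of tau over EYFP in each of 10 groups of genes by deposited length (not the genomic span), in IP (red, with the range over leaving out each IP library) and in pre-IP (grey). The IP medians go from 0.35 in the shortest to -0.26 in the longest group, against 0.13 to -0.07 in pre-IP.

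Genes that make, fold and remove proteins were mixed. In the endoplasmic reticulum list, 17 of 27 genes lay above 0 (43.4% of all genes did) and 10 were without overlap as higher (6.36%). The median of this list was 0.30, and 0.09 without animal B. Sec61b, a subunit of the translocation channel, had 204, 132, 119 and 81.8 against 53.3, 61.9 and 64.5 CPM and a log2 fold change of 1.29 (SE 0.31). Ostc, of the oligosaccharide transferase, had 247, 149, 139 and 116 against 73.6, 90.8 and 93.6 CPM, with a log2 fold change of 1.05 (SE 0.29). Both kept the animal order B, C, L and M. Of 38 proteasome genes, 33 lay above 0 and 12 were without overlap as higher (6.36% of all genes were), with a median of 0.24. Among them, Psmb2 had 426, 331, 337 and 292 against 246, 253 and 258 CPM (log2 fold change 0.58, SE 0.19). Of 26 cytosolic chaperones 13 lay above 0 and 13 below, and Hspe1, the small mitochondrial co-chaperonin counted with them, was their highest member at 473, 281, 239 and 187 against 138, 171 and 163 CPM (log2 fold change 1.04, SE 0.33). In the vacuolar proton pump list 13 of 20 lay above 0, among them Atp6v1g1 at 560.1, 408, 367 and 319 against 203, 265 and 250.4 CPM (log2 fold change 0.91, SE 0.24). The autophagy and lysosome list was near balance, 14 of 26 above 0, and its member with the smallest p, Gabarap, had 778, 646, 558 and 519 against 396, 376 and 418 CPM (log2 fold change 0.78, SE 0.20).

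Antioxidant genes lay above 0 in 18 of 25 cases (43.4% of all genes did), 5 of them without overlap (6.36% of all genes were). Txn1, thioredoxin, had 398, 249, 214 and 171 against 114, 140.4 and 144 CPM and a log2 fold change of 1.09 (SE 0.31). Gpx1, a cytosolic glutathione peroxidase, had 691, 487, 452 and 332 against 304, 274 and 271 CPM, with a log2 fold change of 0.92 (SE 0.26). Their DESeq2 adjusted p-values were 0.0196 and 0.0214, and neither overlapped between the groups. In the integrated stress list, the median was -0.07 and 3 of 18 genes were without overlap as lower (9.22% of all genes were). Sesn2, a stress-induced inhibitor of growth signalling, had 6.26, 13.3, 12.3 and 18.9 against 27.3, 26.1 and 20.98 CPM, with a log2 fold change of -0.88 (SE 0.29), and Ddit4, of similar function, overlapped, with a log2 fold change of -1.01 (SE 0.34). Gap43, a growth cone protein of regenerating axons counted in this list, had 1628, 1340.2, 1158 and 781 against 628, 794 and 605 CPM, with a log2 fold change of 0.99 (SE 0.26), with M below the highest EYFP library.

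Genes of neurodegeneration lay on both sides. Some were higher. Sncg, gamma-synuclein, had 1868, 967, 779 and 409 CPM in tau animals B, C, L and M and 225, 203 and 326 CPM in EYFP animals H, I and K. Its log2 fold change was 2.14 (SE 0.49), and M was again the tau library nearest to the EYFP group. Uchl1, a neuronal ubiquitin hydrolase, had 2660.5, 1883, 1418 and 1058 against 1040.4, 889.6 and 1004 CPM, with a log2 fold change of 0.98 (SE 0.31). Amyloid precursor genes were lower. App had 454, 623, 481 and 476 CPM in tau animals B, C, L and M and 889.8, 802 and 808 CPM in EYFP animals H, I and K. The 3 EYFP libraries lay between 802 and 889.8 CPM, and all tau libraries lay below, for a log2 fold change of -0.61 (SE 0.14) and a DESeq2 adjusted p of 0.0199. Its relative Aplp2 had 298, 379, 413 and 383 against 565, 546 and 564 CPM, with a log2 fold change of -0.50 (SE 0.13), and Apba2, an adaptor that binds App, had 74.6, 101, 90.4 and 111 against 162, 148 and 154 CPM, with a log2 fold change of -0.61 (SE 0.15). Mapt, the mouse tau gene, overlapped at 254, 434, 293 and 308 against 371, 365 and 339.9 CPM (log2 fold change -0.05, SE 0.17). Of 24 tau kinases and phosphatases (median -0.16), 0 were without overlap as higher (6.36% of all genes were) and 4 as lower (9.22%).

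Cytoskeletal genes lay on both sides. Stmn2, a growth-associated tubulin regulator, had 1393, 1019.7, 898 and 680.5 against 579, 598 and 653 CPM and a log2 fold change of 0.84 (SE 0.26). Dynll1, a dynein light chain, had 1119.7, 822, 661 and 562 against 453, 463 and 451 CPM, with a log2 fold change of 0.92 (SE 0.26). Nefm, the medium neurofilament, had 213, 340.4, 303 and 343 against 462, 469 and 540.3 CPM, with animal B the lowest and a log2 fold change of -0.62 (SE 0.17). Sptan1, alpha spectrin, had 76.8, 103, 83.6 and 97.1 against 172, 177 and 120.1 CPM, with a log2 fold change of -0.69 (SE 0.17), and Capn2, a calpain protease that cuts it, had 24.9, 36.02, 34.2 and 37.98 against 50.2, 57.7 and 64.6 CPM, with a log2 fold change of -0.69 (SE 0.17). None of these 5 genes overlapped between the groups. The list of transport motors had 10 of 24 above 0 and a median of -0.16, which became 0.01 after the subtraction for length.

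Receptors and channels of neurons lay on both sides, with more genes below 0 than above. Of 51 tested ionotropic receptor subunits, 37 lay below 0 and 14 above, and 8 were without overlap as lower (9.22% of all genes were). Their median was -0.23, and -0.04 after the subtraction for length. Gabre, the epsilon subunit of the GABA receptor, had 20.2, 11.1, 7.97 and 2.296 against 2.35, 1.28 and 1.12 CPM (log2 fold change 2.87, SE 0.68), with M and EYFP animal H nearly equal. Chrna6 and Chrnb3, subunits of nicotinic receptors of catecholamine neurons, had 79.6, 33.3, 37.9 and 12.1 against 10.9, 10.3 and 8.86 CPM (log2 fold change 2.18, SE 0.55) and 17.96, 13.4, 18.1 and 3.56 against 3.38, 4.51 and 2.83 CPM (log2 fold change 2.02, SE 0.51). Animal M lay near the EYFP group in each of these 3 genes. Of 72 potassium channel genes, 54 lay below 0 and 18 above, 7 were without overlap as lower (9.22% of all genes were) and 1 as higher, with a median of -0.34, and of -0.22 after the subtraction for length. Among sodium, calcium, pacemaker and leak channels, 34 of 52 lay below 0 (56.6% of all genes did), and the median of -0.20 became 0.0452 after the subtraction for length. Cacng3, an auxiliary protein of glutamate receptors counted in this list, had 209.7, 134, 115 and 46.2 against 44.6, 39.4 and 36.9 CPM, with a log2 fold change of 1.79 (SE 0.44). In the release machinery Unc13a, a vesicle priming protein, had 6.94, 19.5, 25.4 and 22.1 against 37.04, 39.5 and 27.7 CPM, with a log2 fold change of -0.82 (SE 0.34), while Stx1a overlapped, with a log2 fold change of 0.94 (SE 0.33).

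Markers of other neurons and of glia lay mostly below 0, and their part in the noradrenergic difference was not tested. All 9 listed genes of GABA and glycine neurons and all 9 of glutamate neurons lay below 0, with medians of -0.45 and -0.50. Gad1 had 109, 195, 183 and 133 against 214, 273 and 203 CPM (log2 fold change -0.47, SE 0.20) and Slc17a6, a vesicular glutamate transporter, had 64.5, 111, 109 and 99.3 against 149, 181 and 129 CPM (log2 fold change -0.58, SE 0.18). Neither overlapped, and B was the lowest in both. Of 9 serotonergic genes, 7 lay below 0 and 2 above, 2 were without overlap as lower and 1 as higher, and Tph2, the serotonin synthesis enzyme, overlapped (log2 fold change -0.85, SE 0.40). Of 8 cholinergic genes, 5 lay below 0 and 3 above, among them Slc10a4, which this list holds, and Chat, which makes acetylcholine, overlapped (log2 fold change -0.90, SE 0.32). The summed cholinergic genes ran from 0.0487 to 0.124% in the tau and from 0.03601 to 0.0514% in the EYFP libraries. All 12 astrocyte genes lay below 0 (56.6% of all genes did), 4 without overlap (9.22% of all genes were), with a median of -0.51. Of 12 oligodendrocyte genes, 11 lay below 0, with a median of -0.44. Slc1a3, a glial glutamate transporter, had 25.3, 59.2, 45.4 and 47.5 against 76.5, 72.4 and 79.5 CPM (log2 fold change -0.69, SE 0.22), Aqp4, the water channel of astrocytes, had 24.95, 47.5, 61.1 and 72.1 against 94.5, 77.1 and 109 CPM (log2 fold change -0.78, SE 0.29), and Cnp, a myelin enzyme, had 562, 706, 700.2 and 938 against 942, 1009.9 and 1154 CPM (log2 fold change -0.41, SE 0.17). No listed gene of astrocytes, oligodendrocytes, microglia or GABA and glycine neurons was at 0 in any library. The summed astrocyte genes ran from 0.255 to 0.525% in the tau and from 0.455 to 0.595% in the EYFP libraries, and the summed oligodendrocyte genes from 0.392 to 1.104% in the tau and from 0.942 to 1.39% in the EYFP libraries. Without animal B the medians were -0.39 for astrocytes, -0.30 for oligodendrocytes and -0.19 for glutamate neurons, and without animal M they were -0.71, -0.75 and -0.52.

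**Figure D4:**
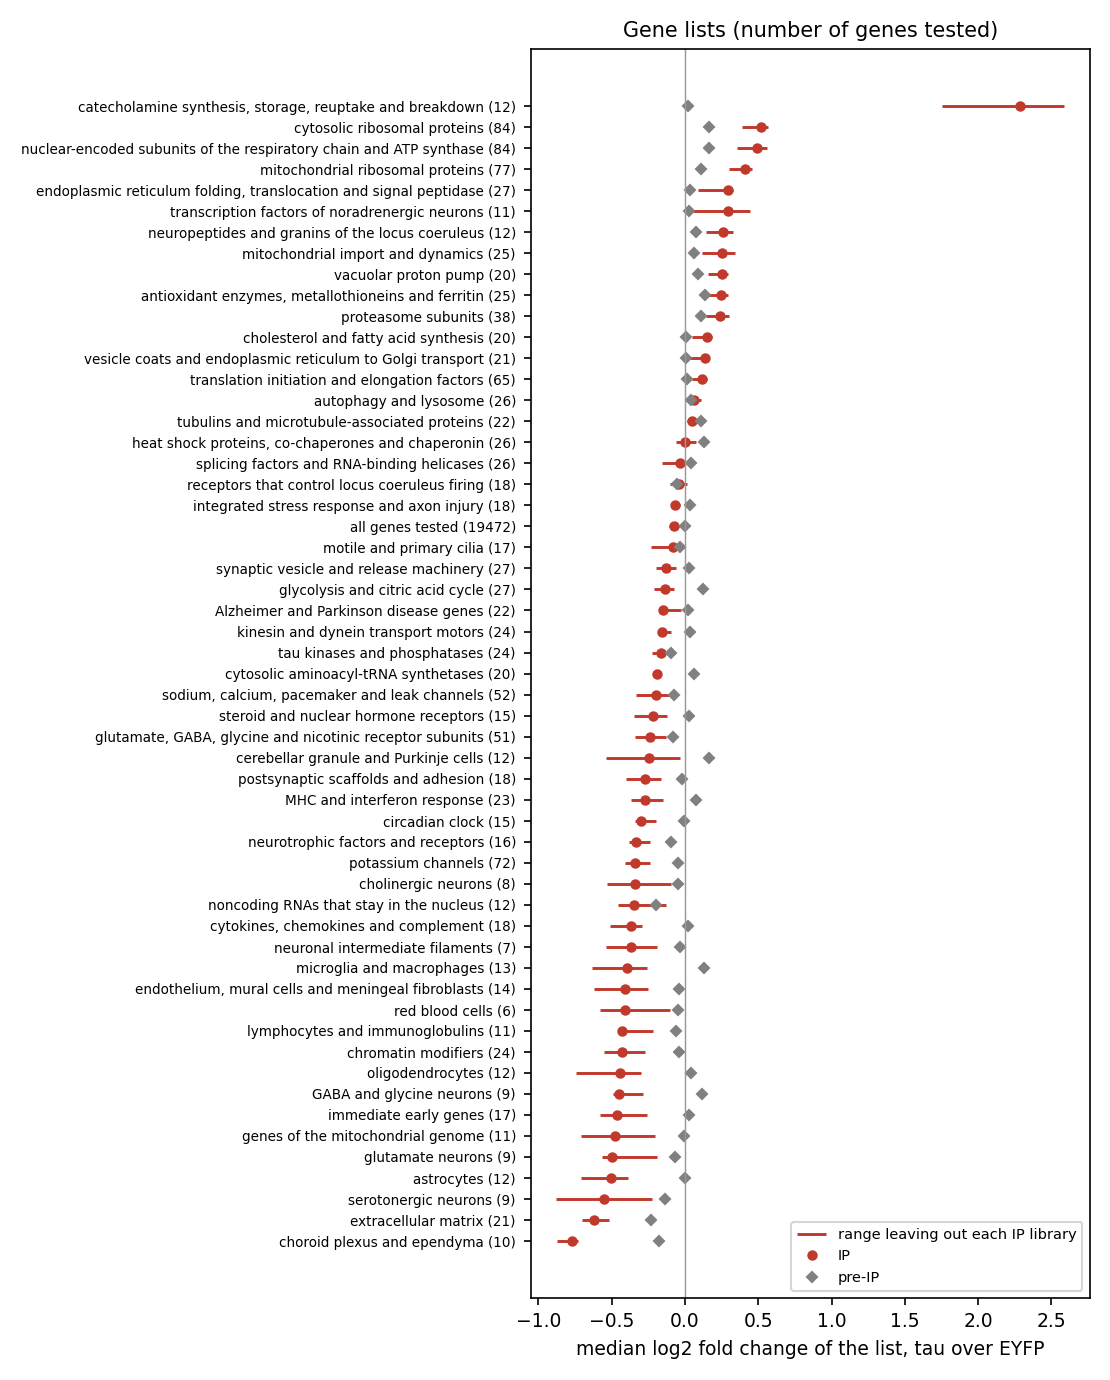
Median log2 fold change of tau over EYFP for the gene lists (number of genes tested in brackets), in IP (red, with the range over leaving out each IP library) and in pre-IP (grey). Not drawn are the lists of pituitary hormones (2.42 in IP, 2.13 in pre-IP) and of X inactivation and Y-linked genes (-0.07 in IP, 0.57 in pre-IP). The catecholamine list lies at 2.28 and ribosomal proteins at 0.52, and the lists of glia and other neurons lie below 0, with pre-IP medians near 0.

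Several single genes outside these lists were lower in tau IP. Enpp2, autotaxin, an enzyme of choroid plexus and oligodendrocytes that makes lysophosphatidic acid, had 255, 312, 179 and 175 CPM in tau animals B, C, L and M and 409.7, 582 and 629 CPM in EYFP animals H, I and K. Animals L and M were the lowest and the highest tau library, C, lay below all EYFP libraries, for a log2 fold change of -1.12 (SE 0.25) and a DESeq2 adjusted p of 0.00899. Choroid plexus RNA moved with it. Ttr, the main choroid plexus transcript, had 616, 1139, 94.9 and 31.4 against 1049, 1783 and 1562 CPM, and the 10 listed genes of choroid plexus and ependyma all lay below 0 (median -0.77, summed level from 0.00628 to 0.1202% in the tau and from 0.112 to 0.187% in the EYFP libraries). Their part in the Enpp2 value was not tested. Ngly1, which strips sugars from misfolded proteins, had 23.2, 29.3, 30.2 and 26.6 against 47.01, 42.7 and 54.2 CPM, with a log2 fold change of -0.71 (SE 0.16). Robo2, an axon guidance receptor, had 5.05, 6.41, 7.81 and 6.39 against 12.7, 16.1 and 11.2 CPM, with a log2 fold change of -0.95 (SE 0.21). Pltp, a phospholipid transfer protein, had 11.03, 15.4, 17.1 and 17.8 against 32.1, 24.6 and 31.7 CPM, with a log2 fold change of -0.85 (SE 0.20). These 3 genes had even tau levels, with no single animal far from the others.

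Other lower genes had animal B far below the rest. Igsf9b, an adhesion protein of inhibitory synapses, had 8.31, 24.1, 18.5 and 18.9 against 42.7, 42.2 and 27.4 CPM and a log2 fold change of -1.01 (SE 0.30). Fyco1, an adaptor for transport of autophagosomes, had 6.48, 18.5, 19.5 and 22.04 against 35.6, 30.6 and 26.4 CPM, with a log2 fold change of -0.81 (SE 0.33). Acss1, a mitochondrial acetyl-CoA synthetase, differed on the log2 scale by -0.81 (SE 0.35) and Smo, the transducer of hedgehog signals, by -0.91 (SE 0.38). In these 4 genes animal B had the lowest level, and without it the log2 fold changes were -0.80 for Igsf9b, -0.56 for Fyco1, -0.57 for Acss1 and -0.66 for Smo. Chromatin genes, which are long by the deposited length, followed: 23 of 24 lay below 0 (56.6% of all genes did) and 8 were without overlap as lower (9.22%). Their median of -0.43 became -0.20 after the subtraction for length. Kmt2a, a histone methyltransferase, had 9.56, 17.7, 21.3 and 17.7 against 35.5, 27.5 and 23.4 CPM (log2 fold change -0.70, SE 0.25) and Arid1b, a subunit of a remodelling complex, had 6.48, 12.9, 9.27 and 11.96 against 18.4, 15.6 and 19.7 CPM (log2 fold change -0.73, SE 0.24).

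Genes of the extracellular matrix lay mostly below 0. Of 21 tested matrix genes, 18 lay below 0 (56.6% of all genes did) and 3 above, with a median of -0.62 (-0.52 without animal B). As lower, 5 had an unadjusted p under 0.05 (4.06% of all genes) and 5 were without overlap (9.22%). Col6a2, a collagen chain, had 0.605, 1.79, 1.302 and 1.11 against 4.11, 4.12 and 4.35 CPM, with a log2 fold change of -1.71 (SE 0.38). Pcolce, an enhancer of procollagen processing, had 5.13, 5.26, 4.93 and 4.13 against 12.5, 8.28 and 13.6 CPM, with a log2 fold change of -1.13 (SE 0.25), and Vtn, vitronectin, had 20.9, 19.2, 25.8 and 36.6 against 43.6, 40.6 and 58.8 CPM, with a log2 fold change of -0.80 (SE 0.24). All 3 were without overlap. Of 14 genes of endothelium, mural cells and meninges, 13 lay below 0 and 2 were without overlap as lower (9.22% of all genes were). Their summed level ran from 0.122 to 0.328% in the tau and from 0.224 to 0.354% in the EYFP libraries, with overlap. Car12, a carbonic anhydrase, had 1.82, 4.19, 1.62 and 1.66 against 5.85, 10.8 and 9.35 CPM, with a log2 fold change of -1.80 (SE 0.40). Among transcripts near the floor of 3 counts, Pdcd1 had 0 counts in all tau libraries and at most 1.03 CPM in EYFP, which makes it at least 12.1-fold lower, and the estrogen receptor gene Esr2 had at most 0.0427 CPM in tau against 0.426 to 0.906 CPM. The immunoglobulin segment Igkv6-23 (0.178, 0.128, 0.276 and 0.191 against 1.22, 9.27 and 5.01 CPM) and the opposite-strand transcript Rab11fip4os1 are uncertain, since reads of related segments or of the partner gene can be split by the counting.

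RNA of the pituitary, which lies outside the sampled tissue, was present in some libraries. Gh, growth hormone, had 12.2, 8.205, 3311 and 558 against 33.4, 11.7 and 259 CPM. Fshb had 0, 0.0855, 25.8 and 4.29 against 0.213, 0 and 0.0988 CPM. The median of the 9 pituitary genes was 2.42 in IP and 2.13 in pre-IP. In IP it was -0.41 without animal L. High values of Gh were those of tau animals L and M and of EYFP animal K, and tau animals B and C had at most 12.2 CPM.

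In the homogenates of the same 7 animals, edgeR called 0 of 19197 genes between tau and EYFP (percent called 0, and 2.84% at an unadjusted p under 0.05). For Dbh the pre-IP levels were 11.8 ± 2.91 CPM with tau and 15.7 ± 9.58 CPM with EYFP animals (SD, n = 4 and 3), a log2 fold change of -0.41 (SE 0.35), and for Th 67.7 ± 12.5 CPM with tau and 60.6 ± 6.35 CPM with EYFP, a log2 fold change of 0.17 (SE 0.16). For Gal they were 24.6 ± 4.12 CPM with tau and 23.3 ± 1.67 CPM with EYFP, a log2 fold change of 0.09 (SE 0.16), and for Adgre1 3.67 ± 0.589 CPM with tau and 3.14 ± 0.373 CPM with EYFP, a log2 fold change of 0.24 (SE 0.21). In pre-IP the groups of these 4 genes overlapped. The defining markers were thus present in every IP library, and the EYFP IP stood nearer to its input than the tau IP did, with Dbh at 29.2 to 56.1 CPM in EYFP IP and 128 to 1292 CPM in tau IP. The difference between the tau effect in IP and that in pre-IP was tested as an interaction over all 14 libraries. edgeR called 0 of 20495 genes (percent called 0, and 5.97% at an unadjusted p under 0.05), and DESeq2 called 52 of 20474 (0.254%), 47 of them (0.23%) with a higher tau effect in IP. A block term for the animal, which the IP and pre-IP libraries share, gave 0 edgeR calls (percent called 0, and 1744 genes, 8.51%, at an unadjusted p under 0.05). For Dbh the interaction was 4.78 (SE 0.83) on the log2 scale, with an edgeR adjusted p of 0.166 and a DESeq2 adjusted p of 0.000757. For Shisal2b it was 4.53 (SE 0.78) (edgeR adjusted p 0.166, DESeq2 adjusted p 0.000366), and for Slc18a2 2.95 (SE 0.57) (0.23 and 0.000276). App had an interaction of -0.67 (SE 0.28) with an edgeR adjusted p of 0.816, and Enpp2 of -0.85 (SE 0.54) (0.837).

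**Figure D5:**
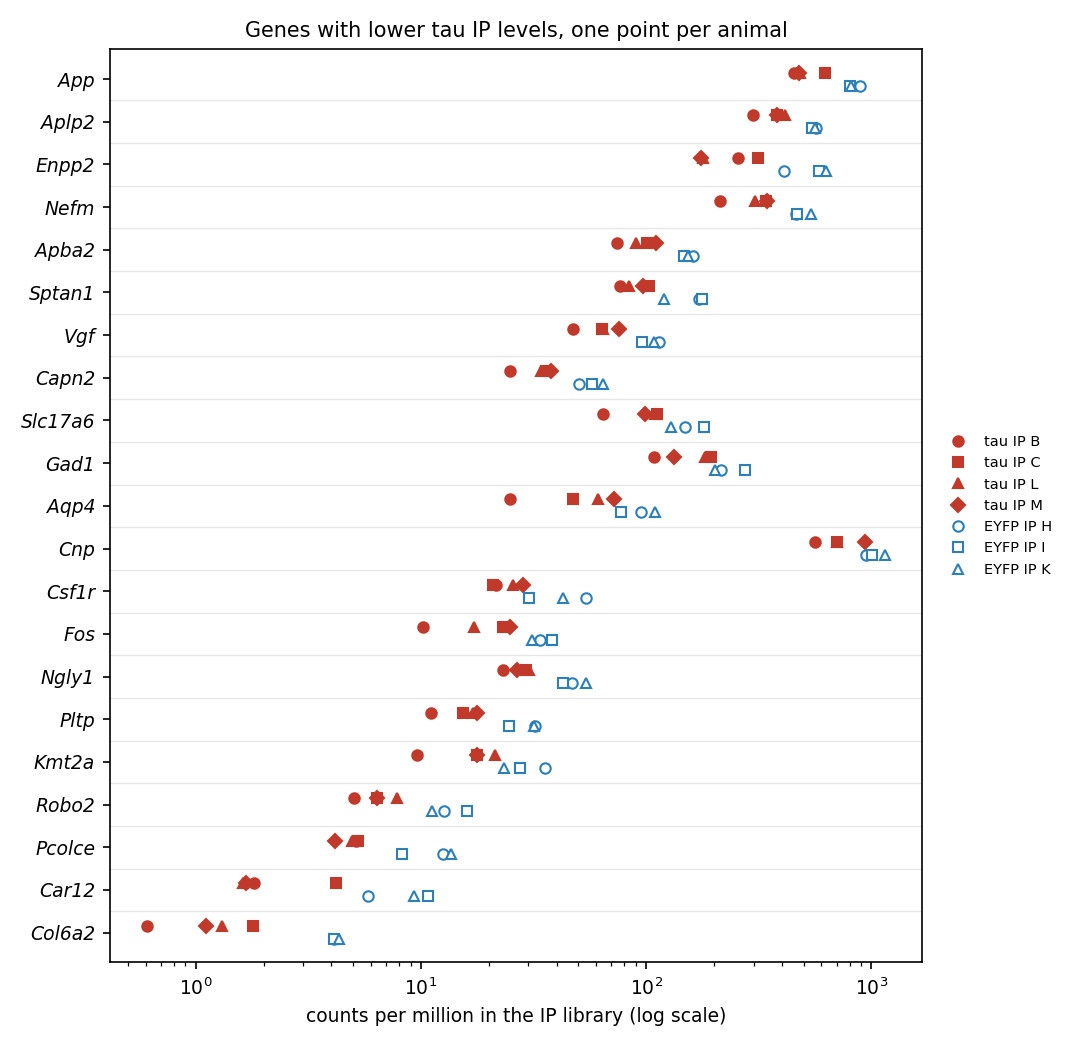
CPM (log scale) in each IP library for genes with lower tau levels, filled red for tau and open blue for EYFP animals. App lies between 454 and 623 CPM in tau and between 802 and 889.8 CPM in EYFP libraries, and Col6a2 between 0.605 and 1.79 CPM in tau and between 4.11 and 4.35 CPM in EYFP libraries.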

How the data were processed

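RNA from an IP and a pre-IP homogenate of 7 mice was measured in 14 libraries. Column-purified polyadenylated RNA was amplified with a SMART-Seq kit and turned into libraries with a Nextera XT kit, per the labels' protocols. The deposited table holds whole-number read counts for 55421 mouse genes and the human tau construct, and its columns were read by position because the header has 2 stray empty cells. FastQC, Trim Galore, STAR and featureCounts, with the builds GRCm38 and mm10, are listed per the submitters' processing notes, without versions. The annotation release, the use of strand and the treatment of reads with several matches are not given in the sources used here. RNA concentration, the RNA integrity number (a quality score) and the GC percent of each library were deposited in the sample sheet, per the file headers. Names and coordinates came from the deposited gene table, and 3663 of the 3710 entries it lacks were named from GENCODE M21.

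Tau IP was compared with EYFP IP in edgeR 4.0.16 (R 4.3.3) by the quasi-likelihood F test, with filterByExpr, trimmed-mean scaling and Benjamini-Hochberg adjustment at 0.05. The standard error is the log2 fold change over the square root of F. Pre-IP libraries had a fit of their own, and a fit of all 14 libraries tested whether the tau effect differed between fractions. DESeq2 1.42.0, limma 3.58.1 voom, other filters and scalings, covariates and leaving out each animal were tried besides. CPM are counts over the library total, and a floor of 3 counts corresponds to 0.0457 to 0.0641 CPM in the IP libraries. The floor is a number of reads, and reads were not counted as molecules. The fits were tested on simulated counts with known changes. There the share of false calls was above the threshold of 0.05 for DESeq2 and below it for edgeR. Most changes of 1 log2 unit were missed by edgeR. The simulated spread of each gene was that estimated by edgeR, and genes varied independently of each other within an animal. The simulation therefore cannot decide between the tools for the real libraries.

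IP and pre-IP libraries of an animal share a letter and are paired. Their deviations from the group means correlated at 0.276 to 0.580. Tau and EYFP animals are different animals, so the IP comparison is unpaired. No pair of IP libraries within a group agreed within sampling noise (over 9 pairs, chi-square per degree of freedom was at least 63.4).

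The comparison, the 56 gene lists and the other settings were chosen with earlier results of these data known. The rule for naming took the 10 genes with the smallest p in each direction without overlap, the 8 with the largest changes among those with an unadjusted p under 0.05 and a mean of at least 20 CPM, the 6 with the smallest DESeq2 adjusted p, and in each list up to 4 genes with the smallest p and the most abundant member. Ddc, Gch1, Maoa, Maob, Cyb561, Pts, Hspb3, Gpx3, Fkbp1b, Dlk1, Eya2, Rab3b, S100a10 and Sptan1 were named outside it, after their values were seen. Some genes that the rule took are not reported here. Lists were described by counts and medians, without a test.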

Additional observations from a re-analysis of the deposited data

Results flagged for a closer look

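Of 168 gene levels, list shares and library measures of the 4 tau IP libraries, 13 had an extreme library farther from the others than Dixon's critical gap at 95%. Chance alone gives about 5% of such values. In animal B, Rps26 was high at 199 CPM, mt-Nd5 was low at 104 CPM, and 20813 genes were detected, the fewest. The counts of animal B also held a low share of genes of glutamate neurons (0.0297%) and of chromatin modifiers (0.0696%), and a high share of proteasome genes (1.15%). In animal C, App was high at 623 CPM, still below the EYFP libraries, Car12 at 4.19 CPM and Esr2 at 0.0427 CPM, the only tau library with Esr2 counts. In animal L the pituitary genes Gh (3311 CPM) and Fshb (25.8 CPM) were high. In animal M the share of transport motor genes was low (0.721%), and that of genes of antigen presentation and the interferon response was high (0.0537%). The groups of 3 EYFP libraries were too small for this comparison.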

How the results depend on the processing

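The number of genes called between tau IP and EYFP IP (0 by edgeR) was 411 with DESeq2, 342 with DESeq2 at its default filter level (chosen after seeing the data), 113 without a low-count filter and 202 with all 14 libraries in a single fit. It was 0 with the size factors of DESeq2, with voom, with at least 50 counts on average, with library-number range or labelled sex as covariate, with robust hyperparameters and with scaling that left out the list genes. Leaving out each IP library gave from 0 to 128 calls, and every such fit other than the one without M gave 0. Between the pre-IP groups the count was 44 without a low-count filter, and from 0 to 1 leaving out each animal. For the interaction it was 52 with DESeq2 and 67 without a filter. With the animal as a replicate block, which pairs the fractions, it was 0. Some directions turned. The pituitary median was -0.407 without animal L and ran from -0.407 to 2.955 over leaving out each library. After the median of the length group was subtracted, the medians were 0.036 for Alzheimer and Parkinson disease genes, 0.00765 for transport motors and 0.0452 for sodium, calcium, pacemaker and leak channels. Medians within 1 SD between libraries of 0 crossed it too, to 0.0668 for vesicle release, 0.124 for receptors of the locus coeruleus, 0.161 for splicing factors and 0.121 for chaperones, and without single libraries to as much as 0.0154 for the receptors and 0.0531 for splicing factors. Leaving out single libraries moved Maob from -0.28 to 0.0188 and Mapt from -0.21 to 0.0145. The cause of these turns was not tested. The scalings moved the median of all genes from -0.08 to no higher than -0.05. The groups held 4 and 3 animals, animals B and M lay far apart in many genes, and the lowest depth of an IP library was 46801702 counts.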
